A study of Mus musculus with 24 samples.

Results

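Mitochondrial ribosomal protein genes were examined in neural stem and progenitor cells (NSPCs) with and without the histone acetyltransferase KAT6A. Members were the genes whose symbols in the count files read Mrpl or Mrps followed by a number and at most 1 letter. There were 78 of them among 26411 genes, 49 with Mrpl and 29 with Mrps symbols. NSPCs came from the dorsal telencephalon of C57BL/6 mouse embryos at E12.5 (embryonic day) and were cultured under neurosphere conditions. Embryos were Kat6a+/+ (WT in the labels), Kat6a+/- (HET KO) or Kat6a-/- (HOM KO), and the mutant allele is a germline deletion of exons that leaves a premature stop in the catalytic domain. Each genotype gave 4 libraries in each of 2 conditions. Proliferating NSPCs were collected after 3 days in medium with FGF2 and EGF. Differentiating NSPCs were collected after 3 days on poly-L-ornithine and laminin with 1% serum and without growth factors. The study reports that under proliferation conditions Kat6a+/- colonies were smaller and often attached. Kat6a-/- cells made few floating colonies there and attached to the plastic. The part of attachment in the members' values was not tested. RNA was extracted with one kit in each condition, so that condition and kit cannot be told apart, and the labels give 6 embryos in both conditions.

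Mitochondria translate the few mRNAs of their own genome on a dedicated ribosome, and all of its proteins are encoded in the nucleus, made in the cytosol and imported. The large subunit (Mrpl) holds the peptidyl transferase centre and the small subunit (Mrps) decodes the mRNA. Some members descend from bacterial ribosomal proteins and others were gained in the mitochondrial lineage. The products of this ribosome are core subunits of the respiratory chain and ATP synthase, and defects in its proteins cause human disease that often affects the brain. Symbols do not always give the position: Mrps30 and Mrps18a products sit in the large subunit, and the Mrps36 product is a component of the 2-oxoglutarate dehydrogenase complex.

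Library totals ranged from 7826660 to 40838203 counts, with the deepest in proliferating Kat6a+/+ NSPCs. Members took 20991 to 117247 counts in a library, which was 0.224% to 0.302% of its protein-coding counts, and all 78 passed the filter on low counts in every fit. Kat6a counts cover the whole gene, undeleted exons included, and therefore check the labels only weakly. Levels are in CPM (counts-per-million), the count over the library's total in tested genes, with that total scaled by its TMM normalization factor. In these units proliferating libraries held 373 to 409 of Kat6a for Kat6a+/+ embryos and 334 to 389 for Kat6a-/- embryos. Differentiating ones held 239 to 292 and 160 to 253. Y-linked genes had over 100 CPM, here by library total, in 3 Kat6a+/+, 1 Kat6a+/- and 1 Kat6a-/- library per condition, so that sex was unevenly spread over genotypes. In 1 of the 6 embryos present in both conditions, which is replicate 1 of both Kat6a+/+ groups, these reads went opposite ways, so that at least 1 of these libraries goes against its label. Counts of calls without them stand beside the results. The progenitor markers Sox2 and Nes were present in all libraries. In this bulk RNA, fewer cells of a type and less RNA per cell cannot be told apart.

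In Kat6a+/+ NSPCs the members covered a wide span of levels per gene length. In proliferating cells Mrps6, a protein of the small-subunit platform, stood at 101 ± 11.8 RPKM (CPM per kilobase of gene length, mean ± SD, n = 4), Mrpl12 at 96.4 ± 5.16 and Mrpl42 at 77.0 ± 4.52 RPKM. Mrps6 and Mrpl12 did not differ beyond their spread, and both were above Mrpl42. The lowest levels per length were 3.34 ± 0.328 RPKM for Mrpl48, 3.65 ± 0.610 for Mrpl23 and 4.87 ± 0.313 for Mrps25, with Mrpl48 and Mrpl23 within each other's spread. In differentiating cells Mrps6 was far above all other members at 251 ± 26.5 RPKM, followed by Mrpl33 at 73.3 ± 8.50 and Mrpl13 at 73.3 ± 4.47 RPKM. The lowest there were Mrpl23 at 2.77 ± 0.467, Mrps25 at 4.32 ± 0.290 and Mrpl1 at 4.74 ± 0.543 RPKM. Mrps6 shares exons on the same strand with Slc5a3, the sodium/myo-inositol cotransporter, so that its reads may be split between the genes.

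The promoters of Mrpl58, Mrpl10, Mrpl49 and Mrpl14, to which the comparisons return, are printed as examples of members with ETS letters, with NRF1 letters, with YY1 letters and with none. They are 300 bases long, 250 before and 50 after the start, come from RefSeq, whose table is on GRCm38.p6, and each was matched once, base for base, in GRCm39, whose coordinates are given. Capitals mark CCGGAAG (bound by ETS factors such as GABPA), GCGCATG (the core of the NRF1 site), AAGATGG (the core of the YY1 site) and CACGTG (E-box), on either strand. The Mrpl58 promoter holds ETS letters at bases -17 and -2 from the start, the Mrpl10 promoter NRF1 letters at -133 on the reverse strand and at -4, and the Mrpl49 promoter YY1 letters at -215 and 17. The Mrpl14 promoter holds none of the 6 motifs searched and had a GC content of 78%. It lies inside the longer gene that GENCODE gives. In GRCm39 the genes span chr11:115294556-115303502 on the plus strand (Mrpl58), chr11:96932369-96940044 on the plus strand (Mrpl10), chr19:6103652-6107871 on the minus strand (Mrpl49) and chr17:45996373-46010480 on the plus strand (Mrpl14). Mrpl49 shares exon sequence with Syvn1 on the opposite strand.
Mrpl58 promoter, GRCm39 chr11:115294328-115294627, plus strand: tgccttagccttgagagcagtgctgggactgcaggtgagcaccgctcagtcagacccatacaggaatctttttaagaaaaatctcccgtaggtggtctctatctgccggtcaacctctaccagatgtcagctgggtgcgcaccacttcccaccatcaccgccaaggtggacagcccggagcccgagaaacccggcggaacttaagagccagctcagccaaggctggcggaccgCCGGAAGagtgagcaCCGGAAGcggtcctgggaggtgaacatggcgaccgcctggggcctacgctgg
Mrpl10 promoter, GRCm39 chr11:96932158-96932457, plus strand: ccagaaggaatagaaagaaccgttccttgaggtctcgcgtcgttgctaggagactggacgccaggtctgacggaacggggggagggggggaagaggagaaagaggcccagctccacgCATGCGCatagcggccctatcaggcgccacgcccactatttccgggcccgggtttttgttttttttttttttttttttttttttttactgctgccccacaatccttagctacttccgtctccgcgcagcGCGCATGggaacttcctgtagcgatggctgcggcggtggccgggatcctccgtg
Mrpl49 promoter, GRCm39 chr19:6107736-6108035, minus strand: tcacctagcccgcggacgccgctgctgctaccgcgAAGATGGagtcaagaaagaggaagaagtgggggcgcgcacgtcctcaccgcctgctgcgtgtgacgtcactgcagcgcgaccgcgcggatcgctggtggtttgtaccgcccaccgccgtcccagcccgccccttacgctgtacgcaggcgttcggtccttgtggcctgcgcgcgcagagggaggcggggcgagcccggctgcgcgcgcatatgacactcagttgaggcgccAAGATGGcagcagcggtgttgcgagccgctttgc
Mrpl14 promoter, GRCm39 chr17:45997025-45997324, plus strand: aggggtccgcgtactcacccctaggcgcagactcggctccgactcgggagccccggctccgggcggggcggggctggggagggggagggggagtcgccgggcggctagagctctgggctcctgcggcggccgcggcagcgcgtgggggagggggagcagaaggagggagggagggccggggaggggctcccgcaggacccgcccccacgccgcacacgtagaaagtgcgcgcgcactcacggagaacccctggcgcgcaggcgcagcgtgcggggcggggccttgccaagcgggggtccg

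Among 75 promoters of 69 members, 26 (34.7%) held the ETS letters, against 16% of 14015 promoters of all tested genes. The YY1 core was in 13 (17.3%, against 6.69%) and the NRF1 core in 8 (10.7%, against 6.46%), and any of these 3 in 38 (50.7%, against 26.2%). The shares were close to the background for the E-box (9.33% and 9.55%), CCAAT (40.0% and 38%) and TATAAA (6.67% and 7.14%). Motifs were searched on both strands, and none of the 6 contains another. No entry was in the table for Mrpl38. A match is a run of letters and not a binding site, and these counts are a description with no test.

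Proliferating Kat6a-/- NSPCs had small changes in a minority of members. Against Kat6a+/+, 2 members rose and 6 fell at an adjusted p under 0.05, which is 10.3% of members. Of all genes tested 30.0% were called, 16.2% higher and 13.8% lower. An unadjusted p under 0.05 was reached by 16 members, and by 42.5% of all genes. The median log2 fold-change was -0.08 over members and -0.00 over all genes, and none of the 78 exceeded 0.5 in either direction. The median standard error (SE) was 0.0935 for members and 0.112 for all genes. In 12 members all 4 Kat6a-/- libraries lay below all 4 Kat6a+/+ libraries and in 3 they lay above, against 17.6% and 13.7% of all genes. The Kat6a-/- libraries of this condition held 7826660 to 9775640 counts, fewer than any Kat6a+/- library, while Kat6a+/+ libraries held 7854556 to 40838203. Of 6 astrocyte markers 5 were tested and 4 rose in Kat6a-/-, with a summed level of 334 to 447 CPM against 131 to 172 CPM in Kat6a+/+ libraries. The highest counts were in Aldoc. The markers did not all move together, with Aldh1l1 at 22 to 66 unscaled counts in Kat6a-/- and 56 to 1048 in Kat6a+/+. Gfap and Aqp4 had at most 58 and 10 counts in Kat6a-/- libraries. Of 10 S-phase genes 4 fell and none rose, with a summed level of 1178 to 2092 CPM against 2229 to 2475 CPM. The 5 microglia markers summed to 6.38 to 8.25 CPM against 1.26 to 1.41 CPM, with C1qa at 0 in all libraries. Nearly all of this was P2ry12, at 56 to 71 unscaled counts in Kat6a-/- and 10 to 48 in Kat6a+/+ libraries. Each other microglia marker had 2 counts or fewer in these libraries. The progenitor markers summed to 5137 to 7151 CPM against 7126 to 8008 CPM, with the highest counts in Vim. The part of depth, these markers and S-phase genes in the members' values was not tested.

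The largest fall was that of Mrpl14, a large-subunit protein at the face that meets the small subunit. Its level was 20.6, 19.5, 17.8 and 20.0 CPM in the Kat6a+/+ libraries, 17.5, 20.5, 19.9 and 18.5 CPM in Kat6a+/- libraries and 15.3, 14.9, 15.0 and 13.7 CPM in Kat6a-/-. The Kat6a-/- libraries lay below all others of the condition, with a log2 fold-change against Kat6a+/+ of -0.39 (SE 0.095, adjusted p = 0.00872). Mrpl38, a large-subunit protein gained in mitochondria, stood at 65.1, 58.1, 57.4 and 61.0 CPM in Kat6a+/+, at 51.4, 56.7, 58.2 and 57.6 CPM in Kat6a+/- libraries and at 47.6, 48.1, 43.8 and 47.8 CPM in Kat6a-/-. Here too the Kat6a-/- libraries were the lowest of the condition, and the log2 fold-change was -0.35 (SE 0.071, adjusted p = 0.00299). Mrpl39, also specific to mitochondria, stood at 53.9 to 59.8 CPM in Kat6a+/+ libraries and at 44.8 to 48.3 CPM in Kat6a-/- (log2 fold-change -0.26, SE 0.063, adjusted p = 0.00885). These 3 genes kept their calls when any single library was left out. Litters held several genotypes, and with litter as a fixed term Mrpl38 was still called (adjusted p = 0.0146), whereas Mrpl14 (adjusted p = 0.0690) and Mrpl39 (adjusted p = 0.0593) were not.

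The other falls were Mrpl58 (log2 fold-change -0.32, adjusted p = 0.0235), Mrpl34 (-0.26, adjusted p = 0.0345) and Mrps5 (-0.24, adjusted p = 0.0432). Mrpl58 encodes a peptidyl-tRNA hydrolase built into the large subunit that releases stalled chains. With litter as a fixed term none of these 3 was called, nor was Mrpl10. Mrpl58 was no longer called without Kat6a-/- replicate 3 or 4 or Kat6a+/+ replicate 1, 2 or 4, Mrpl34 without Kat6a-/- replicate 1, 2 or 3 or Kat6a+/+ replicate 1 or 4, and Mrps5 without any of Kat6a+/- replicates 1 and 2, Kat6a-/- replicates 1 and 4 and Kat6a+/+ replicates 1, 2 and 4. Of the 2 rises, Mrpl10, which anchors the stalk of the large subunit, went from 48.4, 46.2, 47.5 and 52.1 CPM in Kat6a+/+ to 55.3, 51.5, 60.8 and 54.2 CPM in Kat6a-/-. The groups overlapped in 1 library, with a log2 fold-change of 0.23 (SE 0.066, adjusted p = 0.0181), and the call was lost without Kat6a-/- replicate 3 or Kat6a+/+ replicate 1. Mrps6 stood at 89.7, 76.9, 67.6 and 81.1 CPM in Kat6a+/+ libraries and at 87.2, 83.9, 105 and 110 CPM in Kat6a-/-, overlapping groups with a log2 fold-change of 0.35 (SE 0.099, adjusted p = 0.0168). That call was kept with litter as a fixed term but was absent from edgeR and DESeq2, with a term for Y-linked reads, with no litter block and without Kat6a-/- replicate 4 or Kat6a+/+ replicate 3. Slc5a3, which overlaps Mrps6, was also called higher (log2 fold-change 0.45, SE 0.142, adjusted p = 0.0311), and its part in the Mrps6 value was not tested. Without Kat6a+/+ replicate 1, 1 of the 2 libraries whose Y-linked reads disagree, 4 members were called, and without Kat6a+/+ replicate 4, 5.

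**Figure D1:**
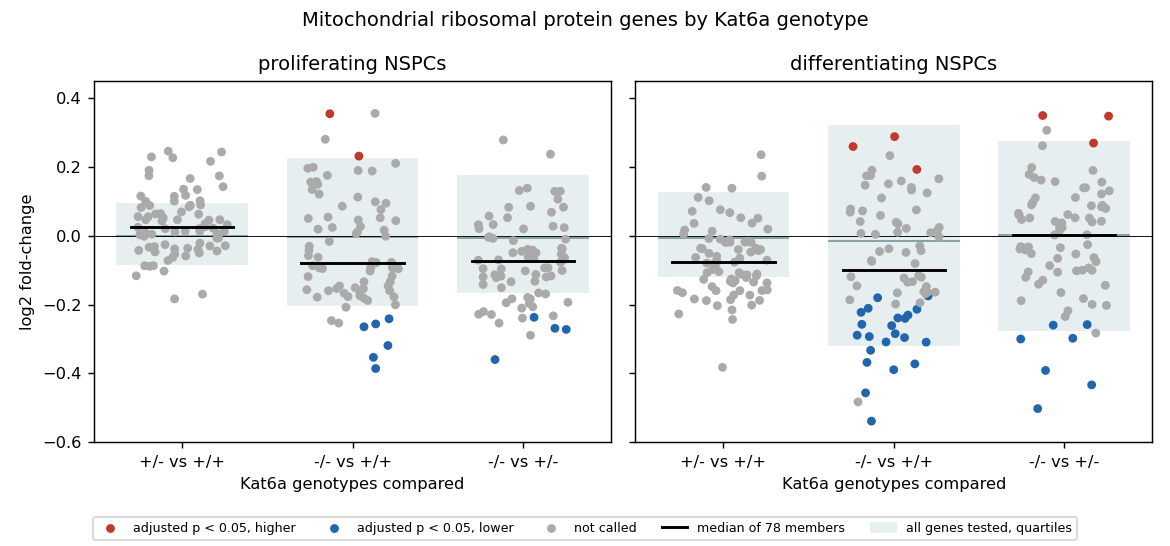
Fitted log2 fold-change of each of the 78 members (points) between Kat6a genotypes in proliferating and differentiating NSPCs, red and blue where the adjusted p was under 0.05. Black lines are the medians of the members and shaded boxes the quartiles of all genes tested: in proliferating Kat6a-/- vs. Kat6a+/+ NSPCs 2 members are red and 6 blue, in differentiating ones 3 and 22, and in the Kat6a+/- vs. Kat6a+/+ columns none is coloured.

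In differentiating NSPCs more members were called than in proliferating NSPCs, by another kind of fit that weights libraries, and most of these calls rested on the weights. The fold-changes were again small, and 48 members lay below 0 where 47 did in proliferating NSPCs. Against Kat6a+/+, 3 members rose and 22 fell in Kat6a-/- NSPCs, which is 32.1% of members. Of all genes tested 54.4% were called, 26.7% higher and 27.7% lower. An unadjusted p under 0.05 was reached by 33 members, and by 59.7% of all genes. The median log2 fold-change was -0.10 over members and -0.02 over all genes. In 8 members all Kat6a-/- libraries lay below all Kat6a+/+ libraries and in 1 they lay above, against 14.7% and 12.2% of all genes. The quality weights gave 69.0% of the Kat6a-/- group's weight to replicate 3, 16.8% to replicate 1, 10.0% to replicate 4 and 4.22% to replicate 2.

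The largest fall was that of Mrpl58, at 29.8, 32.2, 32.3 and 35.4 CPM in Kat6a+/+ libraries, 29.1, 33.4, 32.4 and 33.2 CPM in Kat6a+/- libraries and 18.9, 29.0, 21.8 and 23.4 CPM in Kat6a-/-. All Kat6a-/- libraries lay below the other genotypes, replicate 2 least so, with a log2 fold-change of -0.54 (SE 0.081, adjusted p = 0.000159). Mrpl18, which helps to place an RNA in the central protuberance of the large subunit, stood at 36.9, 32.4, 36.1 and 36.1 CPM in Kat6a+/+ libraries and at 29.4, 27.8, 29.7 and 24.7 CPM in Kat6a-/- (log2 fold-change -0.31, SE 0.063, adjusted p = 0.00137). Again no Kat6a-/- library reached the Kat6a+/+ range. Exons of Mrpl18 overlap those of Tcp1 on the opposite strand. Mrpl10 moved the other way, from 50.9, 58.0, 53.8 and 56.4 CPM in Kat6a+/+ to 62.6, 73.2, 63.7 and 61.7 CPM in Kat6a-/-, the one member whose Kat6a-/- libraries all lay above Kat6a+/+ (log2 fold-change 0.26, SE 0.057, adjusted p = 0.00225). Mrpl58, Mrpl18 and Mrpl10 were the 3 members called when the weights were dropped, and also the 3 called by edgeR. With litter as a fixed term none of them was called (no member was, with 10 at an unadjusted p under 0.05), and Mrpl10 was also not called with a term for Y-linked reads or with library totals. DESeq2 called these and Mrpl49, a mitochondria-specific large-subunit protein at 45.2, 41.6, 46.0 and 42.9 CPM in Kat6a+/+ libraries and 34.7, 40.9, 33.3 and 41.2 CPM in Kat6a-/- (log2 fold-change -0.37, SE 0.062, adjusted p = 0.000336).

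Calls beyond these came with overlapping groups in most cases. Mrps5, a bacterial homolog near the mRNA entry site, stood at 25.2, 23.0, 27.7 and 29.7 CPM in Kat6a+/+ libraries and at 18.8, 25.1, 18.5 and 22.8 CPM in Kat6a-/- (log2 fold-change -0.46, adjusted p = 0.00110). Mrpl28 stood at 61.7 to 67.9 CPM in Kat6a+/+ libraries and at 48.8, 64.4, 46.7 and 60.3 CPM in Kat6a-/- (log2 fold-change -0.39, adjusted p = 0.000514). Mrpl55 stood at 18.2 to 22.2 CPM and at 14.7, 22, 14.3 and 19.0 CPM (log2 fold-change -0.37, adjusted p = 0.00560). In each of these, Kat6a-/- replicates 1 and 3 were low and replicates 2 and 4 lay within or near the Kat6a+/+ range. Mrpl53 (log2 fold-change 0.29, adjusted p = 0.0444) had the same replicates apart in the other direction, at 27 and 24.9 CPM in replicates 1 and 3 and at 13.7 and 19.0 CPM in replicates 2 and 4, around 18.2 to 21.0 CPM in Kat6a+/+. The third rise, Mrps23, was at 41.9 to 46.9 CPM in Kat6a+/+ libraries and at 44.7 to 52.7 CPM in Kat6a-/- (log2 fold-change 0.19, adjusted p = 0.0121).

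No member was called by limma when Kat6a-/- replicate 1 or replicate 3 was left out, with 3 and 2 members at an unadjusted p under 0.05, whereas 49 were called without replicate 2 and 35 without replicate 4. Omitting Kat6a+/+ replicate 1, the other library whose Y-linked reads disagree, left 17 calls and omitting Kat6a+/+ replicate 3 left 15. The shares of all genes called under these omissions are not given here, so these counts do not set the members apart from other genes. Without replicate 1 or 3 the log2 fold-change of Mrpl58 was -0.33 or -0.35 and that of Mrpl10 was 0.35 or 0.36. Markers of mesenchymal cells also varied between the Kat6a-/- libraries, and replicate 2 lay within the Kat6a+/+ range. Foxc1 overlapped, at 434 to 1203 unscaled counts in Kat6a-/- and 455 to 729 in Kat6a+/+. Of 6 such markers 3 were tested and all 3 were called higher in Kat6a-/- by the weighted fit. The summed level of the 6 was 33.0 to 261 CPM there, lowest in replicate 2. It was 23.4 to 57.7 CPM in Kat6a+/+ libraries and 40.5 to 111 CPM in Kat6a+/-, with Lum at 0 in all Kat6a-/- libraries. The summed level of 6 astrocyte markers was 596 to 3927 CPM in Kat6a-/- and 769 to 1447 CPM in Kat6a+/+, and that of 6 neuron markers 465 to 778 and 537 to 702 CPM. Sums of other lists set the genotypes apart. The 6 progenitor markers summed to 8186 to 11733 CPM in Kat6a-/- and 5863 to 7500 CPM in Kat6a+/+. Most of this sum was Vim, at 104108 to 175228 and 75259 to 129111 unscaled counts. The 6 did not move together, with Sox2 at 3607 to 8335 counts in Kat6a-/- and 7389 to 11897 in Kat6a+/+. The 6 oligodendrocyte markers summed to 127 to 223 and 229 to 357 CPM. The 6 neuron markers went different ways in unscaled counts. Dcx, a marker of young neurons, was at 14 to 148 in Kat6a-/- and 275 to 1283 in Kat6a+/+. Tubb3 was at 612 to 900 and 959 to 1771, and Elavl3 at 92 to 168 and 390 to 696. Stmn2 went the other way, at 15 to 61 and 0 to 4. Map2, with the most counts of the list, overlapped at 5693 to 13587 and 8062 to 11511, as did Rbfox3. All 10 S-phase genes examined fell, with a summed level of 173 to 258 CPM in Kat6a-/- and 546 to 849 CPM in Kat6a+/+. The part of these in the members' values was not tested.

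**Figure D2:**
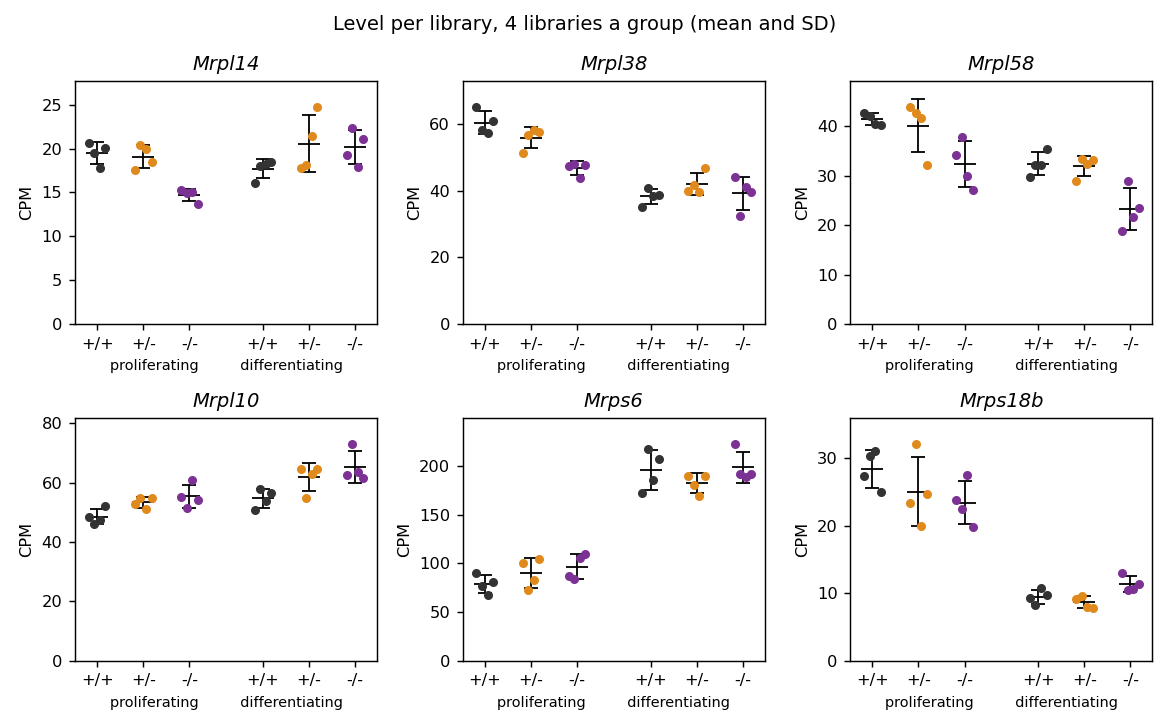
Level in CPM (y axis, from 0) of 6 members in each library, by Kat6a genotype and condition, with the mean and SD of 4 libraries. The Kat6a-/- libraries of Mrpl14 and Mrpl38 are the lowest in proliferating but not in differentiating NSPCs, those of Mrpl58 are low in both, those of Mrpl10 are high in both, and Mrps6 and Mrps18b differ mainly between the conditions.

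The fall of Mrpl14 and Mrpl38 was seen in proliferating NSPCs, and the difference between conditions was itself tested. In differentiating NSPCs Mrpl14 was at 16.1, 18, 18.2 and 18.5 CPM in Kat6a+/+ libraries and at 19.3, 22.3, 18 and 21.1 CPM in Kat6a-/- (log2 fold-change 0.11, SE 0.098, adjusted p = 0.360). Mrpl38 was at 35.2, 40.7, 38.3 and 38.9 CPM in Kat6a+/+ libraries and at 44.2, 32.5, 41.1 and 39.5 CPM in Kat6a-/- (log2 fold-change 0.14, SE 0.070, adjusted p = 0.106). The groups overlapped for both genes. The interaction of Kat6a-/- genotype and condition was called for these 2 members, 2.56% where 13.9% of all genes were called, 6.36% higher and 7.58% lower. Its log2 estimate, differentiating minus proliferating, was 0.61 (SE 0.155, adjusted p = 0.0118) for Mrpl14 and 0.40 (SE 0.122, adjusted p = 0.0326) for Mrpl38. The fit treated the libraries of an embryo in both conditions as independent, and with the embryo as a random block both calls were kept. The Mrpl14 call held in all 24 omissions of 1 library (adjusted p 0.0105 to 0.0497). The Mrpl38 call held in 6 of them, those of Kat6a+/- replicates 1 and 3, Kat6a-/- replicates 2 and 4 and Kat6a+/+ replicate 2 in differentiating and Kat6a-/- replicate 2 in proliferating NSPCs, and was lost in the other 18, with an adjusted p of up to 0.116. Scaled by library totals alone, neither was called (adjusted p 0.0541 and 0.155). The interaction of Kat6a+/- genotype and condition was called for no member, nor for any of all genes (0%), by limma, edgeR or DESeq2, with 2 members at an unadjusted p under 0.05 by each (3.03% of all genes by limma).

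Kat6a+/- NSPCs did not show a member past the threshold. By limma, 0 members were called against Kat6a+/+ in proliferating and 0 in differentiating NSPCs, as for all genes (0% in both), and edgeR and DESeq2 called 0 as well. At an unadjusted p under 0.05 limma had 7 and 10 members, where 7.43% and 14.4% of all genes had such a p, edgeR 3 and 2 and DESeq2 3 and 3. The Kat6a+/- libraries lay apart from Kat6a+/+ upward in 2 members and downward in 1 in proliferating NSPCs (1.89% and 2.64% of all genes), and upward in 0 and downward in 1 in differentiating NSPCs (1.42% and 1.36%). The smallest p in both conditions belonged to Mrpl10, at 52.9, 54.9, 51.0 and 55.0 CPM in proliferating and 64.8, 55.0, 62.9 and 64.8 CPM in differentiating Kat6a+/- NSPCs, within or above the Kat6a+/+ range (log2 fold-changes 0.17 and 0.24, adjusted p = 0.533 and 0.198). Mrpl4 followed in proliferating NSPCs, with all Kat6a+/- libraries (41.0 to 46.6 CPM) below all Kat6a+/+ libraries (48.1 to 52.9 CPM; log2 fold-change -0.17, adjusted p = 0.560). Mrpl12 followed in differentiating NSPCs (log2 fold-change -0.23, adjusted p = 0.227).

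Between the mutant genotypes, 4 members were lower in proliferating Kat6a-/- than Kat6a+/- NSPCs, 5.13% where 14.8% of all genes were called, 8.47% higher and 6.30% lower. These were Mrpl14 (log2 fold-change -0.36, adjusted p = 0.0228), Mrps10 (-0.27, adjusted p = 0.0452), Mrpl34 (-0.27, adjusted p = 0.0491) and Mrpl38 (-0.24, adjusted p = 0.0370). In 8 members, these 4 among them, all Kat6a-/- libraries lay below all Kat6a+/- libraries, and in none above (6.07% and 6.22% of all genes). No call was made without Kat6a+/- replicate 2 or Kat6a-/- replicate 4. In differentiating NSPCs 3 members were higher and 7 lower, 12.8% where 37.5% of all genes were called, 19.1% higher and 18.5% lower. The groups lay apart upward in 2 members and downward in 2 (6.74% and 9.48% of all genes). The falls were led by Mrpl58 (log2 fold-change -0.50, SE 0.095, adjusted p = 0.00210), whose Kat6a-/- libraries were all below those of Kat6a+/-, and Mrpl37 (-0.43, adjusted p = 0.00527), at 72.6, 63.7, 59.4 and 75 CPM in Kat6a+/- libraries and 48.7, 71.8, 48.7 and 62.9 CPM in Kat6a-/-. The rises were Mrpl20 (0.35, adjusted p = 0.0112), Mrps18b (0.35, adjusted p = 0.0485) and Mrps23 (0.27, adjusted p = 0.00826). By limma none was called without Kat6a-/- replicate 1 or 3, while 22 were called without replicate 2, 18 without replicate 4, 16 without Kat6a+/- replicate 2, 6 without Kat6a+/- replicate 4 and 3 without Kat6a+/- replicate 1.

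By structural class, the falls lay in both subunits. The shares called ran from 0 to 14.3% in proliferating and from 25% to 40.0% in differentiating NSPCs, where 30.0% and 54.4% of all genes were called. Of 30 large-subunit proteins with bacterial homologs, 1 rose and 2 fell in proliferating and 1 rose and 10 fell in differentiating Kat6a-/- NSPCs. Of 21 large-subunit proteins specific to mitochondria, 3 fell in proliferating, and 1 rose and 5 fell in differentiating NSPCs. Among 16 small-subunit proteins with bacterial homologs, 1 rose and 1 fell in proliferating and 4 fell in differentiating NSPCs. Among 10 small-subunit proteins specific to mitochondria none was called by limma in proliferating NSPCs, with 2 at an unadjusted p under 0.05, and 1 rose and 3 fell in differentiating NSPCs. No class was tested against another. The class counts place Mrps18b among the small-subunit proteins specific to mitochondria, although its product is a variant of a bacterial protein. Mrps18a, Mrps18b and Mrps18c, variants of a single bacterial protein, were not called against Kat6a+/+ in either condition. Their log2 fold-changes were 0.13, -0.25 and -0.10 in proliferating and -0.14, 0.19 and 0.02 in differentiating NSPCs. Mrps12, of the decoding centre, had values of 0.02 and 0.07, and Mrpl12, which also binds the mitochondrial RNA polymerase, of -0.08 and -0.15. Mrps30 had values of -0.20 (all Kat6a-/- below Kat6a+/+, adjusted p = 0.0553) and -0.04, and Mrps36 of 0.36 and -0.04, with an SE of 0.204 and 0.170. In differentiating NSPCs the estimates of Mrps18a, Mrps30 and Mrps36 changed sign without the quality weights.

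With TMM scaling, the summed level of all members differed little between genotypes. It was 2964, 2824, 2900 and 2923 CPM in proliferating Kat6a+/+ NSPCs and 2785, 2705, 2966 and 2556 CPM in Kat6a-/-, which spanned the Kat6a+/+ range, and 2912 ± 13.2 CPM (SD, n = 4) in Kat6a+/-. In differentiating NSPCs it was 2601 ± 105 CPM in Kat6a+/+, 2519 ± 96.1 in Kat6a+/- and 2540 ± 106 in Kat6a-/-. The log2 ratio of the Kat6a-/- to the Kat6a+/+ mean was -0.08 in proliferating and -0.03 in differentiating NSPCs. Without TMM scaling, as a share of protein-coding counts, the groups did not overlap in differentiating NSPCs. The share was 0.224% to 0.251% in Kat6a-/- and 0.252% to 0.278% in Kat6a+/+ libraries. In proliferating NSPCs these shares overlapped. Library totals without TMM factors moved the median of the log2 fold-changes in differentiating Kat6a-/- NSPCs to -0.17 over all genes and to -0.26 over members. The log2 ratio of sums was then -0.16, and 46 members were called, 0 higher and 46 lower, where 62.3% of all genes were called.

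The ratio of the Mrpl to the Mrps sum separated the conditions, at 1.88 to 2.03 in the 12 proliferating and 1.65 to 1.84 in the 12 differentiating libraries. Leaving out Mrps6 alone gave ranges that overlapped, 2.09 to 2.22 and 2.14 to 2.32. Genotypes overlapped within each condition, except that the differentiating Kat6a-/- libraries, at 1.65 to 1.75, lay below the Kat6a+/- libraries, at 1.76 to 1.84, with Kat6a+/+ between them at 1.71 to 1.80.

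**Figure D3:**
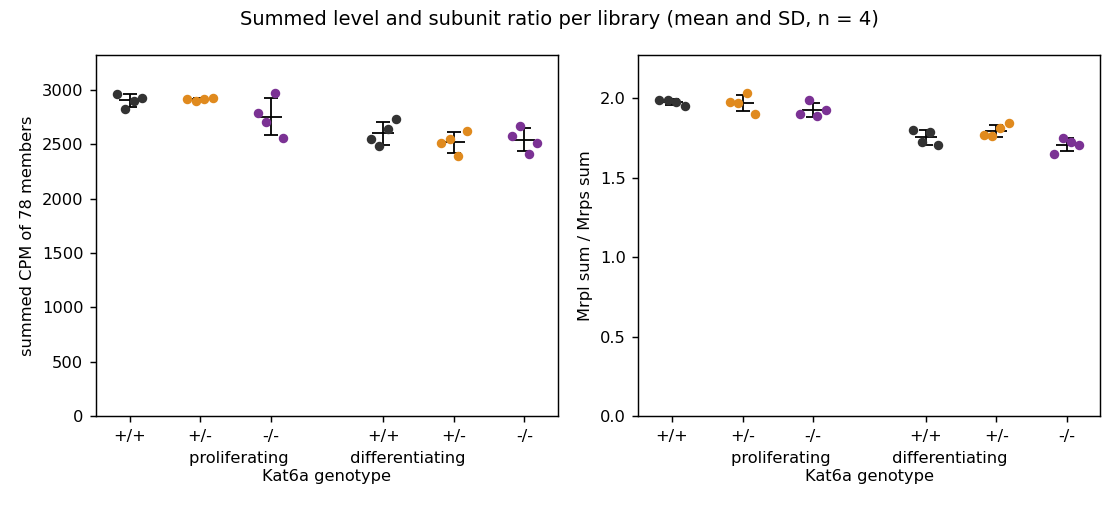
Left, summed CPM of the 78 members in each library. Right, summed Mrpl over summed Mrps CPM, both by Kat6a genotype and condition with the mean and SD of 4 libraries. The sums, scaled with TMM factors, overlap between the 3 genotypes within each condition. The ratio lies between 1.88 and 2.03 in proliferating and between 1.65 and 1.84 in differentiating libraries.

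The change from proliferation to differentiation reached larger fold-changes in members than the genotype comparisons did. In Kat6a+/+ NSPCs 12 members rose and 36 fell, 61.5% where 72.9% of all genes were called, 36.7% up and 36.2% down. The median over members was a log2 fold-change of -0.16. Libraries of the conditions did not overlap in 9 members upward and 37 downward (36.7% and 35.2% of all genes). The following genes were chosen after their values were seen. Mrps18b, of the small subunit, fell from 27.3, 30.4, 31.2 and 25 CPM to 9.30, 8.19, 10.7 and 9.81 CPM (log2 fold-change -1.58, SE 0.128, adjusted p = 7.39e-10), and Mrps27 from 50.4 to 56.1 CPM to 20.4 to 22 CPM (-1.30, SE 0.093, adjusted p = 1.27e-10). Mrpl47 (-1.05), Mrpl19 (-0.91), Mrpl18 (-0.89) and Mrpl12 (-0.88) followed. Mrps6 rose from 67.6 to 89.7 CPM to 172, 218, 186 and 207 CPM (log2 fold-change 1.31, SE 0.115, adjusted p = 2.38e-09), while Slc5a3 rose by a log2 fold-change of 0.67 (SE 0.186, adjusted p = 0.00282). Mrps14 (0.66) and Mrps33 (0.62), both of the small subunit, were next. Exons of Mrps27, Mrpl47, Mrpl19, Mrpl18 and Mrps14 overlap a gene on the opposite strand. The 4 libraries of each condition did not overlap for any gene named here. Of the 48 calls, 42 were kept in all 32 alternatives, the omission of either replicate 1 included.

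The promoter letters described above were set beside the calls. Of the 23 members called in differentiating Kat6a-/- NSPCs that had a promoter, 8 held the ETS letters, 3 the NRF1 core and 3 the YY1 core, and of the 46 others 18, 5 and 10 did. For the 7 members called in proliferating NSPCs the numbers were 2, 2 and 0, and for the 62 others 24, 6 and 13. The counts are a description with no test.

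Many members start head to head with another gene. A protein-coding gene on the opposite strand started within 500 bases of 24 members (30.8%), against 10.9% of 13562 tested genes. Starts here are those of each gene's canonical transcript in GENCODE. Mrpl46 and Mrps11 start 30 bases from each other, and the other 22 have a neighbour that is not a member. In proliferating Kat6a-/- NSPCs 7 of these neighbours (31.8%) were called, 3 higher and 4 lower, where 30.0% of all genes were called, and 6 of the 7 members beside them were not called. In differentiating NSPCs 9 (40.9%) were called, 1 higher and 8 lower, where 54.4% of all genes were, and 8 of the 9 members beside them were not. The 1 higher was Tmem63b (log2 fold-change 0.48), which starts 7 bases from Mrpl14.

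The largest falls among neighbours in differentiating Kat6a-/- NSPCs were those of genes of DNA repair and cell division. Eme1, a subunit of a structure-specific DNA endonuclease that starts 228 bases from Mrpl27, fell from 6.94, 5.84, 6.71 and 4.36 CPM to 1.31, 0.743, 0.783 and 1.81 CPM (log2 fold-change -2.62), while Mrpl27 was at 21.4, 21.4, 22.4 and 24.7 CPM and at 21.9, 26.8, 24.4 and 26.7 CPM (0.13, adjusted p = 0.133). Ncapd2, a condensin subunit 44 bases from Mrpl51, fell from 116 to 178 CPM to 25.8 to 58.4 CPM (-2.28), while Mrpl51 stood at 34.1 to 38.4 CPM and 34.8 to 37.4 CPM (0.06, adjusted p = 0.475). Ska3, of the kinetochore and 156 bases from Mrpl57, fell by 1.83 on the log2 scale, with 0.16 for Mrpl57 (adjusted p = 0.114). In these pairs the neighbour's groups were apart and the member's groups overlapped. Mrpl13 and its neighbour Mtbp were both lower (-0.21 and -0.60). In proliferating NSPCs Lrrc46 fell (-1.52, adjusted p = 0.00714) beside Mrpl10, which rose, at a distance of 110 bases. Exons of 20 members overlap a gene on the opposite strand, those of Mrpl27, Mrpl57 and Mrpl13 with the neighbours named here, and the strand setting of the counting is not given in the sources used here.

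**Figure D4:**
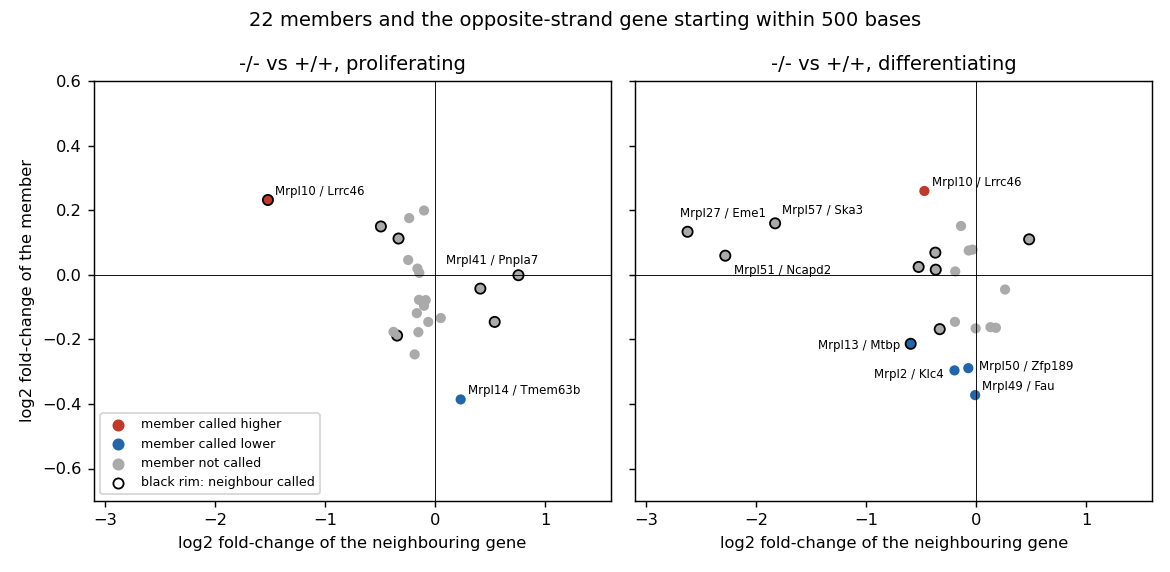
Log2 fold-change in Kat6a-/- vs. Kat6a+/+ NSPCs of 22 members (y axis) and of the opposite-strand gene that starts within 500 bases of each (x axis), coloured by the member's call and rimmed in black where the neighbour was called. In differentiating NSPCs Eme1, Ncapd2 and Ska3 lie at -2.62, -2.28 and -1.83 on the x axis while the members beside them lie between 0.06 and 0.16.

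Other genes of mitochondrial translation were counted in lists drawn up by function. In proliferating NSPCs 0% of translation factors, 11.8% of synthetases and 21.7% of assembly factors were called, where 30.0% of all genes were, and in differentiating NSPCs 41.2%, 17.6% and 17.4%, where 54.4% of all genes were. In proliferating Kat6a-/- NSPCs, of 17 translation factors none was called by limma, with 1 at an unadjusted p under 0.05, and of 17 mitochondrial aminoacyl-tRNA synthetases 1 rose (Nars2, 0.31) and 1 fell. Of 23 assembly and rRNA modification factors 2 rose and 3 fell, led by the GTPase gene Mtg2 (0.39) and the pseudouridine synthase gene Rpusd4 (-0.30). In differentiating NSPCs 7 of 17 translation factors fell and none rose, with the largest fall in Guf1, the homolog of the bacterial factor LepA (-0.61, adjusted p = 0.000460). There 3 synthetases and 4 assembly factors (Mettl15, an rRNA methyltransferase, -0.65) fell and none rose. Of 5 mitoribosomal proteins without an Mrpl or Mrps symbol, Chchd1 fell in proliferating NSPCs (-0.34), and Gadd45gip1 (-0.22) and Dap3 (-0.21, adjusted p = 0.0107) in differentiating NSPCs. Dap3, the GTP-binding protein of the small subunit, had a log2 fold-change of -0.15 (adjusted p = 0.159) in proliferating NSPCs.

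The mRNAs that this ribosome translates were higher in proliferating Kat6a-/- NSPCs. Of 13 mitochondrial-genome mRNAs 10 rose in Kat6a-/- and none fell, with a median log2 fold-change of 0.59 and the largest rise in ATP8 (0.84). Their summed level was 30756 to 43498 CPM in Kat6a+/+ libraries and 46034 to 60478 CPM in Kat6a-/-, and the ranges did not overlap. In differentiating NSPCs 2 rose and none fell, with a median of 0.22. Nuclear subunits of the respiratory chain and ATP synthase counted 21 higher and 1 lower of 81 tested in proliferating (median 0.18) and 7 higher of 82 in differentiating NSPCs (median 0.05). Cytosolic ribosomal protein genes, by contrast, counted 39 lower and none higher of 81 in proliferating NSPCs, with a median of -0.40 against -0.08 for the mitochondrial ribosomal protein genes, and 6 higher and 4 lower in differentiating NSPCs, with a median of 0.03. Beside these counts, 30.0% of all genes were called in proliferating NSPCs, 16.2% higher and 13.8% lower. In differentiating NSPCs 54.4% were called, 26.7% higher and 27.7% lower. Members of all lists were fitted together, and no list was tested against another.

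**Figure D5:**
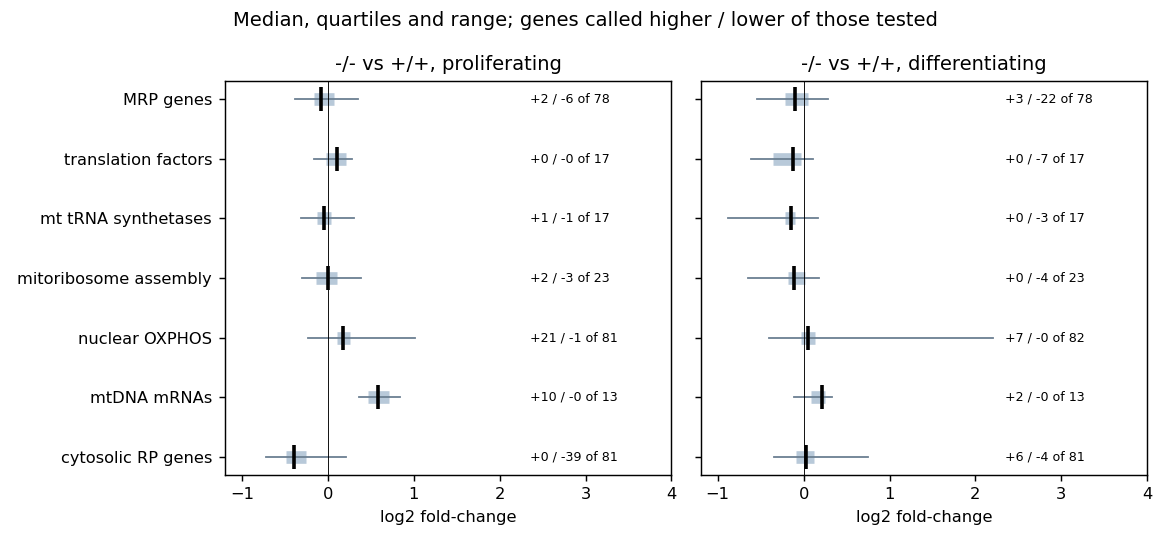
Log2 fold-change in Kat6a-/- vs. Kat6a+/+ NSPCs of the mitochondrial ribosomal protein (MRP) genes and of other lists, as the median (black), quartiles (box) and range (line), with the numbers of genes called higher and lower. In proliferating NSPCs the medians are -0.08 for MRP genes, 0.59 for mRNAs of the mitochondrial genome and -0.40 for cytosolic ribosomal protein (RP) genes.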

How the data were processed

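The authors aligned reads to mm39 with Rsubread and deposited raw counts per gene from featureCounts with a RefSeq annotation. The library kit was stranded. Tool versions for these libraries and the strand setting of the counting are not given in the sources used here. Protein-coding genes passing filterByExpr were tested, without Xist and genes on the Y chromosome (12276 genes in proliferating, 13339 in differentiating and 13590 in all libraries). Following the study's description, proliferating libraries were fitted with limma-voom (limma 3.58.1, edgeR 4.0.16, R 4.3.3) with litter as a random block (correlation 0.287). Differentiating libraries were fitted with limma-trend (prior count 2) and quality weights, and both fits used TMM factors and robust moderation. In Kat6a-/- vs. Kat6a+/+ the proliferating fit called 3686 genes, close to the study's count. The differentiating fit called 7258, well above the study's count, and the reason was not tested. The 4 libraries per group shared 1 estimate of the spread, and the interaction and the change in Kat6a+/+ came from all 24 libraries with litter as the block and no embryo term. A fit with the embryo as the block was an alternative and gave equal counts of called members (48, 2 and 0). P-values were adjusted over all genes by Benjamini-Hochberg and called under 0.05. They measure the spread between embryos' cultures of these litters. Members and lists were chosen with earlier results of these data known. Genes were named by a rule on the size of called changes, smallest p, level or role. Positions came from GENCODE on GRCm39, matched by symbol for all 78 members, and promoters from RefSeq. Alternatives were edgeR, DESeq2 1.42.0, library totals, no filter, other terms and the omission of each library. Replicate numbers did not pair libraries (correlation of same-numbered libraries -0.44 to 0.57 in proliferating and -0.51 to 0.16 in differentiating), and no pair of replicates was alike within sampling noise. Scripts were tested on simulated data. The values of 1 synthetase gene are not reported here.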

Additional observations from a re-analysis of the deposited data

Results flagged for a closer look

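In 7 of 186 groups of 4 libraries examined, the highest or lowest library lay farther from the other 3 than Dixon's 95% limit allows, and chance gives about 1 in 20. Mrpl12 was lowest in differentiating Kat6a+/+ replicate 2, at 45.9 CPM, and Mrpl23 in the same library, at 1.69 CPM. Mrpl38 was lowest in proliferating Kat6a-/- replicate 3, at 43.8 CPM, and Mrps12 was highest in proliferating Kat6a-/- replicate 1, at 24.6 CPM. Mrps18a was lowest in proliferating Kat6a+/- replicate 3, at 31.5 CPM. Mrps36 was highest in differentiating Kat6a+/+ replicate 3, at 5.16 CPM, and Mrps6 in differentiating Kat6a-/- replicate 1, at 223 CPM.

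The Kat6a-/- difference from Kat6a+/+ itself differed between conditions for 2 members by the interaction test of limma, with log2 estimates of 0.61 for Mrpl14 (adjusted p = 0.0118) and 0.40 for Mrpl38 (adjusted p = 0.0326). Mrpl14 fell in proliferating NSPCs, where its libraries did not overlap between these genotypes, and had overlapping libraries in differentiating NSPCs.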

How the results depend on the processing

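The calls in differentiating NSPCs depended most on the processing. Counts of members here, and most such counts above, stand without the share of all genes called under the same setting. They do not set the members apart from other genes. In proliferating Kat6a-/- vs. Kat6a+/+ NSPCs the other settings gave 6 to 9 calls where 8 were made, except litter as a fixed term with 2, and 4 to 10 when 1 library was omitted. In differentiating NSPCs, where 25 were called, edgeR gave 3, DESeq2 4, library totals 46, no filter on low counts 12, litter as a fixed term 0 (with 10 members at an unadjusted p under 0.05), a term for Y-linked reads 4 and no quality weights 3, and omissions gave 0 to 49. For Kat6a-/- vs. Kat6a+/- the 4 proliferating calls became 1 by edgeR, 2 without a filter, 0 with litter as a fixed term and 1 without the litter block (omissions 0 to 4), and the 10 differentiating calls became 1 by edgeR, 2 by DESeq2, 20 with library totals, 3 without a filter, 0 with litter as a fixed term, 1 with the Y-linked term and 1 without weights (omissions 0 to 22). Calls for Kat6a+/- vs. Kat6a+/+ were 0 throughout. The interaction gave 1 call with litter as a fixed term and 1 to 6 in omissions. The change between conditions gave 45 to 48 calls in omissions. The log2 ratio of summed levels was -0.11 to -0.043 in proliferating and -0.058 to -0.0097 in differentiating omissions, and -0.16 with library totals in differentiating NSPCs. Fixed litter terms leave fewer residual degrees of freedom; the cause of the other shifts was not tested.

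In differentiating Kat6a-/- vs. Kat6a+/+ NSPCs estimates changed sign for 6 called members, in at most 2 alternatives each. Besides Mrpl53 these were Mrps9, Mrpl45, Mrpl37, Mrps25 and Mrps11, whose highest values were 0.025, 0.10, 0.013, 0.12 and 0.021. Sign changes of Mrpl53 and of uncalled genes were as follows. Mrps18a was 0.075 by edgeR, 0.088 by DESeq2 and 0.068 without weights, Mrps30 was 0.071, 0.083 and 0.069, and Mrps36 was 0.14, 0.15 and 0.12. Mrps36 was 0.027 without a filter, Mrps36 and Mrps30 were 0.022 and 0.041 with litter as a fixed term, Mrps30 was 0.060 with the Y-linked term, and Mrps12 and Mrps18c were -0.083 and -0.13 with library totals. Omissions gave -0.15 to 0.34 for Mrpl53, -0.24 to 0.19 for Mrps18a, -0.046 to 0.094 for Mrps18c, -0.10 to 0.080 for Mrps30, -0.18 to 0.14 for Mrps36 and -0.015 to 0.12 for Mrps12, and -0.063 to 0.057 for Mrps12 in proliferating NSPCs.

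With the replicate number as a block, which the labels do not tie to a shared embryo or day, proliferating Kat6a-/- NSPCs had 6 calls against Kat6a+/+ and 2 against Kat6a+/-, and differentiating ones 21 against Kat6a+/+. Counts as low as 20 for Mrpl23 limit the precision of the lowest members.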

Other observations

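Regulators of mitochondrial biogenesis were examined as a list of 13 genes. In proliferating Kat6a-/- vs. Kat6a+/+ NSPCs 1 rose and 3 fell, where 30.0% of all genes were called. The rise was in Ppargc1a, the coactivator PGC-1alpha (log2 fold-change 0.93, adjusted p = 0.00917). The largest fall was in Mycn, a transcription factor of growth and ribosome production (-1.51, adjusted p = 0.00351). In differentiating NSPCs 1 rose and 4 fell, where 54.4% of all genes were called. Esrra, the oestrogen-related receptor alpha, was higher (0.49, adjusted p = 0.00254) and Mycn lower (-3.76, adjusted p = 2.89e-05). Of the factors whose motifs were searched, Nrf1 was lower in differentiating NSPCs (-0.26, adjusted p = 0.0168). All its Kat6a-/- libraries lay below Kat6a+/+ in both conditions, as in 17.6% (proliferating) and 14.7% (differentiating) of all genes. Gabpa had log2 fold-changes of 0.09 and 0.04 and Yy1 of -0.15 and 0.08 in proliferating and differentiating NSPCs, and neither was called.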
